A study of Mus musculus with 64 samples.

Results

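The comparison set CEK against CON hearts in the later hours of light, at zeitgeber times ZT06 and ZT09, where 0 is lights-on. CEK mice lacked E4BP4 in cardiomyocytes and CON mice were their littermates. All were male C57BL/6 mice, and RNA came from both ventricles. The members were chosen by their labelled genotype and time: 4 CEK hearts and 4 CON hearts at each time, 8 against 8, or 16 of the 64 libraries of the series, which samples the day every 3 h. The labels used here give neither the Cre driver nor the age of the mice, and they do not say what alleles CON mice carried. The titles number the hearts of a group as biological replicates and say nothing of litters or batches, so p-values measure the spread between these hearts. Libraries were made from total RNA with a SMARTER mRNA-Seq kit.

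E4BP4, the product of Nfil3, is a bZIP repressor. It occupies the D-box, a short DNA element that the PAR bZIP activators Dbp, Tef and Hlf also bind, so that activators and repressor act on the same genes at opposite phases of the circadian cycle. In mice, which are active at night, the hours of light are the resting phase.

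Reads counted on genes were 19.4 M to 43.4 M in CEK libraries and 21.6 M to 31.2 M in CON libraries (M, mega), and mitochondrial genes took 19.98 to 30.6% of them in CEK and 17.6 to 29.2% in CON. No library of the 16 stood apart on the first principal component of all 64, by a limit of 3.5 robust SDs that was chosen with the scores known. Markers of ventricular muscle were abundant. Their score, the mean log2 CPM of 12 genes, where CPM are counts scaled to the library's size, was 10.997 ± 0.0566 in CEK and 11.07 ± 0.091 in CON hearts (SD, n = 8 each). Markers of atrial muscle were present as well. Their score, over 11 genes, was 5.37 ± 0.611 in CEK and 6.25 ± 1.18 in CON hearts (SD, n = 8 each; two-sided exact permutation p = 0.0592 within times, adjusted p = 0.301 over 19 library measures). The highest scores were those of CON replicates 1, 2 and 3 at ZT09, at 7.21, 7.92 and 7.10, and every CEK heart was below them, at 4.41 to 6.03. The part of atrial tissue in the results below was not tested beyond a fit that included this score. Calls lost in that fit are given for the genes chosen by the naming rule, which is stated under processing. For other genes named below they were not recorded. In RNA from whole tissue, fewer cells of a type and less RNA per cell cannot be told apart.

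The targeted gene was low in every CEK heart. Nfil3 (ENSMUSG00000056749.7, chromosome 13, 52967209 to 52981073, GRCm38) had 1.56, 1.93, 1.5 and 1.54 CPM in CEK hearts at ZT06, against 6.57, 6.41, 8.79 and 6.93 CPM in CON hearts. At ZT09 it had 0.660, 0.675, 0.766 and 0.891 CPM in CEK hearts and 6.38, 4.96, 8.29 and 6.22 CPM in CON hearts. The highest CEK heart thus lay below the lowest CON heart at either time. The log2 fold change of CEK over CON was -2.58 ± 0.165 (SE, n = 8 hearts per genotype; edgeR quasi-likelihood test, Benjamini-Hochberg adjusted p = 1.12e-07).

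These hours hold the daily low of Nfil3 in CON hearts. With libraries scaled over all 64, CEK hearts averaged 1.62 ± 0.201 CPM at ZT06 and CON hearts 7.11 ± 1.08 CPM (SD, n = 4 each). The averages at ZT09 were 0.741 ± 0.104 CPM in CEK and 6.42 ± 1.38 CPM in CON hearts. The transcript removed, CON minus CEK, came to 5.49 CPM at ZT06 and 5.68 CPM at ZT09, against 25.1 CPM at ZT0. The log2 fold change was -2.15 at ZT06 and -3.09 at ZT09, and the difference between the times did not pass over all genes (edgeR unadjusted p = 0.00138, adjusted p = 1.00).

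**Figure D1:**
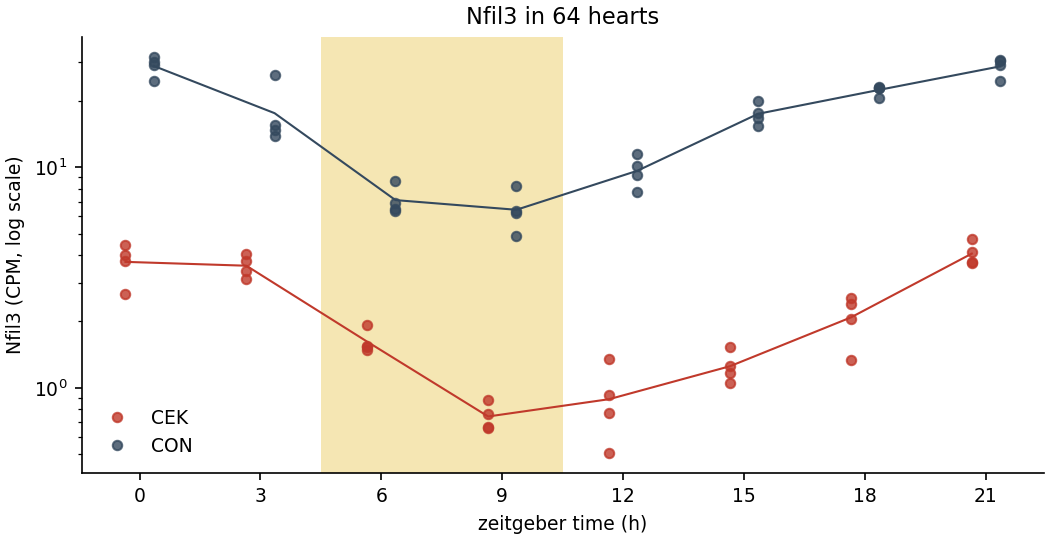
Nfil3 in every heart of the series (CPM on a log axis) by zeitgeber time (h), CEK in red and CON in slate, with lines through the means of 4 hearts and ZT06 and ZT09 shaded. CON hearts are lowest at ZT09, with a mean of 6.42 CPM, and every CEK heart lies below every CON heart of its time.

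Of 15401 genes tested across the 16 libraries with time as a block, 109 passed an adjusted p of 0.05 in edgeR, or 0.708% of the genes tested. Higher in CEK were 59 (0.383%), and 50 (0.325%) were lower. Their median absolute log2 fold change was 0.62, and 19 changed by at least 1, of which 11 were higher and 8 lower. All 109 had the same sign at ZT06 and at ZT09. The lowest CEK heart lay above the highest CON heart in 25 of the 59, against 28 (0.182%) of all genes tested. The highest CEK heart lay below the lowest CON heart in 20 of the 50, against 21 (0.136%) of all genes tested. Of the 109, 96 were annotated as protein-coding, 11 have provisional names and are not named here, and 27 overlap an exon of a gene on the opposite strand. Whether the counting used strand was not stated in what was used here, so those 27 are uncertain.

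The number of calls moved with the processing more than their direction, and no gene of the 109 changed sign in any alternative run. DESeq2 called 251 genes, among them all 109. With the atrial score in the edgeR fit 68 were called, 58 of them among the 109, and the calls higher in CEK numbered 31 in place of 59. Without CON replicate 3 of ZT09 the calls lower in CEK numbered 33 in place of 50. With the spread estimated over all 64 libraries 81 of the 109 stayed called. Among the genes described below Nppb, Acta1, Serpina3n, Tnc, Hk1, Myl1, Sema6c, Ddit4l and Kcnj3 then missed the threshold (edgeR adjusted p from 0.0524 for Nppb to 0.305 for Serpina3n).

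The largest rise among genes averaging 1 or more on the log2 CPM scale was that of Ptgds, a synthase of prostaglandin D2 (chromosome 2, 25466709 to 25470046). CEK hearts ranged from 209.8 to 504 CPM with a median of 311, and CON hearts from 79.4 to 167 CPM with a median of 121. All 8 CEK hearts were above all 8 CON hearts. The log2 fold change was 1.48 ± 0.175 (SE; edgeR adjusted p = 0.00017), and it was 1.48 at ZT06 and 1.48 at ZT09.

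The next rises included single members of the matrix and acute-phase lists. Of these lists 3 of 43 and 3 of 39 passed, all higher, beside 59 (0.383%) of the 15401 genes tested. Timp1, an inhibitor of matrix metalloproteinases, had a lowest, median and highest value of 3.06, 4.26 and 6.01 CPM in CEK hearts, against 1.09, 1.81 and 2.23 CPM in CON hearts, with no overlap. It rose by 1.35 ± 0.16 on the log2 scale (SE; edgeR adjusted p = 0.00017). Lcn2, lipocalin 2, which sequesters bacterial iron carriers in the acute phase, had 2.6, 2.95 and 3.66 CPM in CEK hearts, against 0.855, 1.15 and 1.89 CPM in CON hearts, again without overlap (log2 fold change 1.26 ± 0.163, edgeR adjusted p = 0.000346). Ndnf, a secreted factor with neurotrophic activity, had 16.2, 17.9 and 23.8 CPM in CEK hearts, against 7.14, 8.43 and 12.3 CPM in CON hearts. All CEK hearts were above all CON hearts for Ndnf too (1.06 ± 0.106, edgeR adjusted p = 2.94e-05). Tnc, the matrix glycoprotein tenascin C, had 1.38, 2.71 and 3.83 CPM in CEK hearts and 0.864, 1.40 and 1.72 CPM in CON hearts, and here the genotypes overlapped. Its log2 fold change was 1.00 ± 0.215 (edgeR adjusted p = 0.035), and it overlaps a gene on the opposite strand. Without 1 library at a time Tnc lost its call in 9 of 16 fits (highest adjusted p = 0.0813), and it also lost it once the atrial score entered the fit (0.159).

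Of the stress, hypertrophy and fetal list, which had 13 members above and 13 below 0, 4 of 26 passed, all higher. At an unadjusted p under 0.05 in edgeR 9 were higher and 3 lower, and the lowest log2 fold change was -1.29. Nppa, Myl4 and Myl7, which the list shares with the atrial markers, were all below 0. Of all 15401 genes tested 59 (0.383%) were called higher. Nppb encodes the natriuretic peptide BNP. Its lowest, median and highest values were 104, 165 and 239 CPM in CEK hearts, against 44.0, 67.5 and 131 CPM in CON hearts. The ranges overlapped over both times, since CON hearts at ZT06 reached 131 CPM while CEK hearts at ZT09 started at 104 CPM, but at each time alone every CEK heart was above every CON heart. Nppb rose by 1.16 ± 0.147 on the log2 scale (edgeR adjusted p = 0.000332). Ankrd1, a stress-induced protein of the sarcomere and nucleus, had 1445, 1942 and 2488 CPM in CEK hearts, against 701, 1008 and 1417 CPM in CON hearts, with no overlap. Its log2 fold change was 0.95 ± 0.121 (edgeR adjusted p = 0.000332). Acta1, the skeletal-type actin of the fetal heart, had 170.4, 202 and 329 CPM in CEK hearts and 72.0, 111 and 235 CPM in CON hearts. A single CON heart at ZT06 reached into the CEK range, and the log2 fold change was 0.96 ± 0.186 (edgeR adjusted p = 0.0176, and 0.0913 once the atrial score entered the fit). Mybpc2, the myosin-binding protein of fast skeletal muscle, rose by 0.71 ± 0.13 (edgeR adjusted p = 0.0104, and 0.0846 with the atrial score).

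The other leading rises had separate roles. Ces1d, a carboxylesterase that hydrolyses lipid esters, had the smallest adjusted p of the rises: 272, 303 and 323 CPM in CEK hearts (lowest, median and highest) and 138, 162 and 191 CPM in CON hearts. The genotypes did not overlap, and the log2 fold change was 0.89 ± 0.0597 (edgeR adjusted p = 1.36e-07). Klhdc7a, a kelch-domain gene that holds Mir2139 on its strand, had 13.5, 16.9 and 20.5 CPM in CEK hearts and 6.61, 7.77 and 13.6 CPM in CON hearts, with 2 CON hearts at ZT06 near the lowest CEK heart (0.92 ± 0.123, edgeR adjusted p = 0.00045). Edn3, the peptide endothelin 3, had 2.27, 3.62 and 4.55 CPM in CEK hearts and 0.648, 1.35 and 3.55 CPM in CON hearts, and the genotypes overlapped. Its rise of 1.14 ± 0.249 (edgeR adjusted p = 0.0384) lost its call in 11 of the 16 fits without 1 library (highest adjusted p = 0.0835) and once the atrial score entered the fit (0.153). Ankrd45 had 2.182, 3.5 and 4.55 CPM in CEK hearts and 0.993, 1.70 and 2.6 CPM in CON hearts, also overlapping (0.88 ± 0.185, edgeR adjusted p = 0.0317). It lost its call in 9 of the 16 fits (highest adjusted p = 0.081) and once the atrial score entered the fit (0.178).

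**Figure D2:**
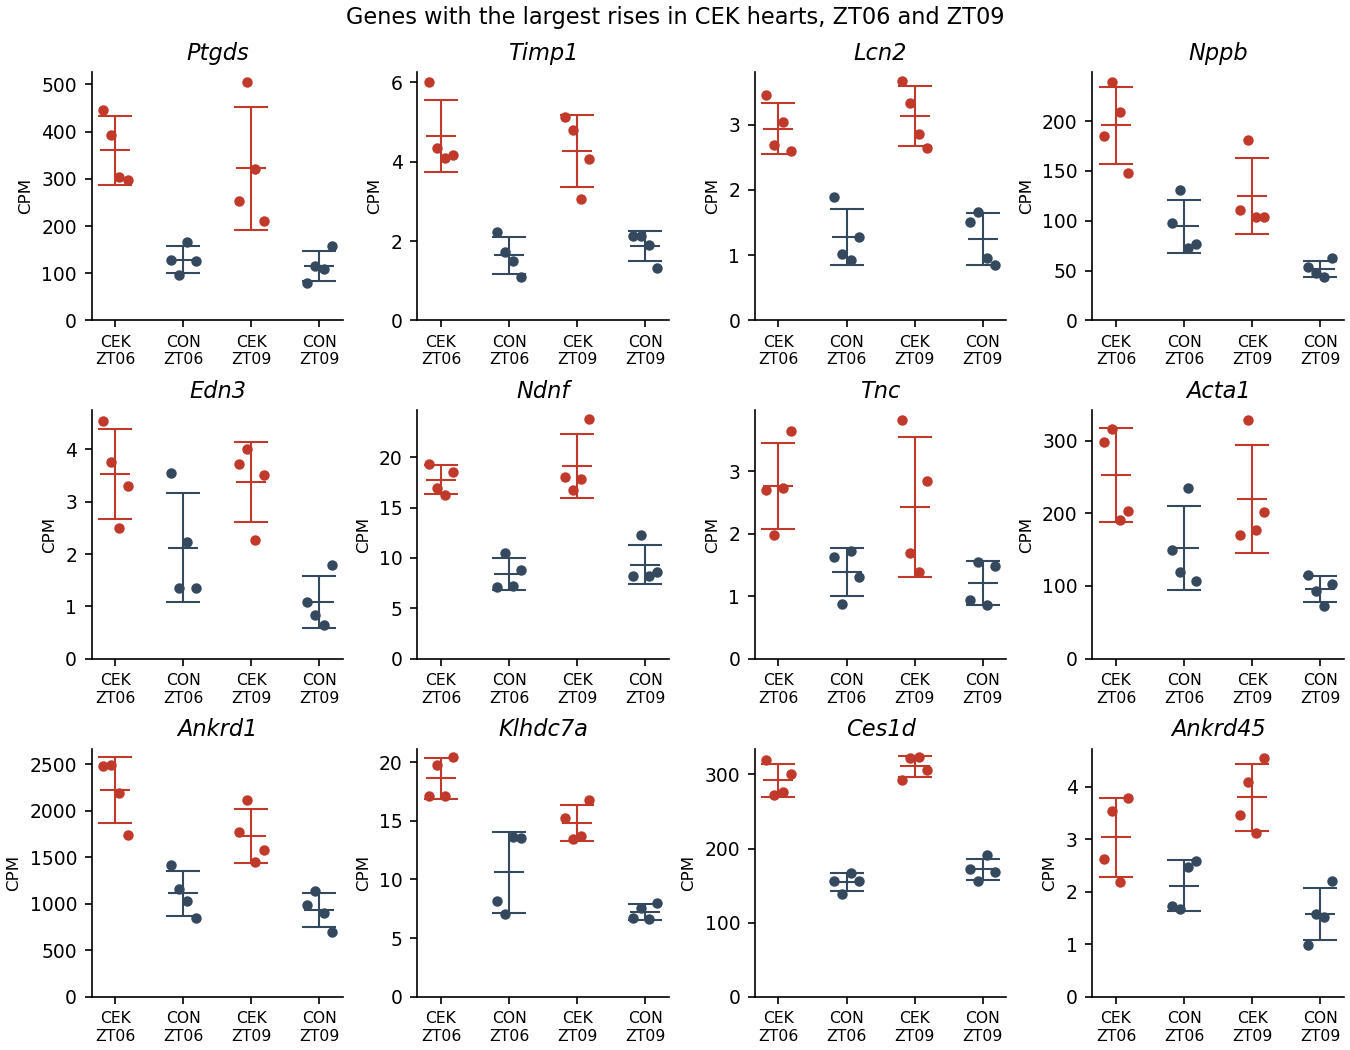
CPM of the 12 genes with the largest rises, each dot a heart, with mean and SD of 4 hearts, CEK (red) left of CON (slate) at ZT06 and at ZT09. All 8 CEK hearts lie above all 8 CON hearts for Ptgds, Timp1, Lcn2, Ndnf, Ces1d and Ankrd1, and the ranges over both times meet for the other 6.

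Among the genes that fell were those of the metabolic enzymes Acsm5, Pfkfb1 and Amy1. Acsm5, a medium-chain acyl-CoA synthetase, had a lowest, median and highest value of 3.06, 4.04 and 4.44 CPM in CEK hearts and 5.63, 8.10 and 11.2 CPM in CON hearts, with no overlap (-1.14 ± 0.133, edgeR adjusted p = 0.00017). It overlaps Pdilt on the opposite strand. Pfkfb1, which makes and breaks down the glycolytic activator fructose 2,6-bisphosphate, had 11.7, 12.8 and 18.9 CPM in CEK hearts and 17.4, 22.7 and 32 CPM in CON hearts. At ZT06 the genotypes were apart and at ZT09 they met (-0.72 ± 0.112, edgeR adjusted p = 0.00237), and Pfkfb1 overlaps Apex2 on the opposite strand. Amy1, an amylase gene with close paralogs that also overlaps Rnpc3, had 6.55, 8.59 and 10.49 CPM in CEK hearts and 11.9, 14.8 and 16.2 CPM in CON hearts, with no overlap (-0.76 ± 0.1, edgeR adjusted p = 0.000408).

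Other named genes that fell had separate roles. Dmd encodes dystrophin, which ties the cytoskeleton to the membrane (chromosome X, 82948870 to 85206141). It had 39.3, 45.1 and 53.6 CPM in CEK hearts and 61.7, 70.3 and 87.2 CPM in CON hearts, and no CEK heart reached a CON heart. The log2 fold change was -0.67 ± 0.0869 (edgeR adjusted p = 0.000348). Amph, the endocytic protein amphiphysin, had 0.638, 1.28 and 1.97 CPM in CEK hearts and 2.41, 3.10 and 4.76 CPM in CON hearts, likewise apart (-1.30 ± 0.167, edgeR adjusted p = 0.000332). Capn3, a muscle calpain whose loss in human patients gives a limb-girdle dystrophy, had 1.69, 2.43 and 2.90 CPM in CEK hearts and 3.19, 4.15 and 6.35 CPM in CON hearts (-0.87 ± 0.133, edgeR adjusted p = 0.00204). Its CEK hearts all lay below its CON hearts, and the gene shares exon positions with Ganc on the same strand. Abca12, a lipid transporter, had 3.65, 5.41 and 6.22 CPM in CEK hearts and 6.82, 9.66 and 12 CPM in CON hearts (-0.85 ± 0.129, edgeR adjusted p = 0.00199). Sema6c, a membrane-bound semaphorin, had 6.58, 8.79 and 10.01 CPM in CEK hearts and 10.9, 13.7 and 18.3 CPM in CON hearts (-0.71 ± 0.105, edgeR adjusted p = 0.00152). All CEK hearts were below all CON hearts for both.

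The ranges met for Myl1 and Ddit4l. Myl1, a light chain of fast skeletal muscle myosin, had 13.4, 22.8 and 25.6 CPM in CEK hearts and 22.2, 34.9 and 72.8 CPM in CON hearts. Its highest values were those of CON replicates 1, 2 and 3 at ZT09, at 72.8, 67.2 and 54.7 CPM, the hearts with the highest atrial scores. The log2 fold change was -0.997 ± 0.217 (edgeR adjusted p = 0.0384). It was -0.54 and not called once the atrial score entered the fit (adjusted p = 0.162), and 9 of the 16 fits without 1 library lost the call (highest adjusted p = 0.095). Ddit4l, an inhibitor of mTOR signalling, had 1.81, 2.09 and 3.38 CPM in CEK hearts and 1.55, 3.89 and 5.11 CPM in CON hearts (-0.70 ± 0.152, edgeR adjusted p = 0.0361). It lost its call in 13 of the 16 fits (highest adjusted p = 0.0813) and once the atrial score entered the fit (0.252).

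**Figure D3:**
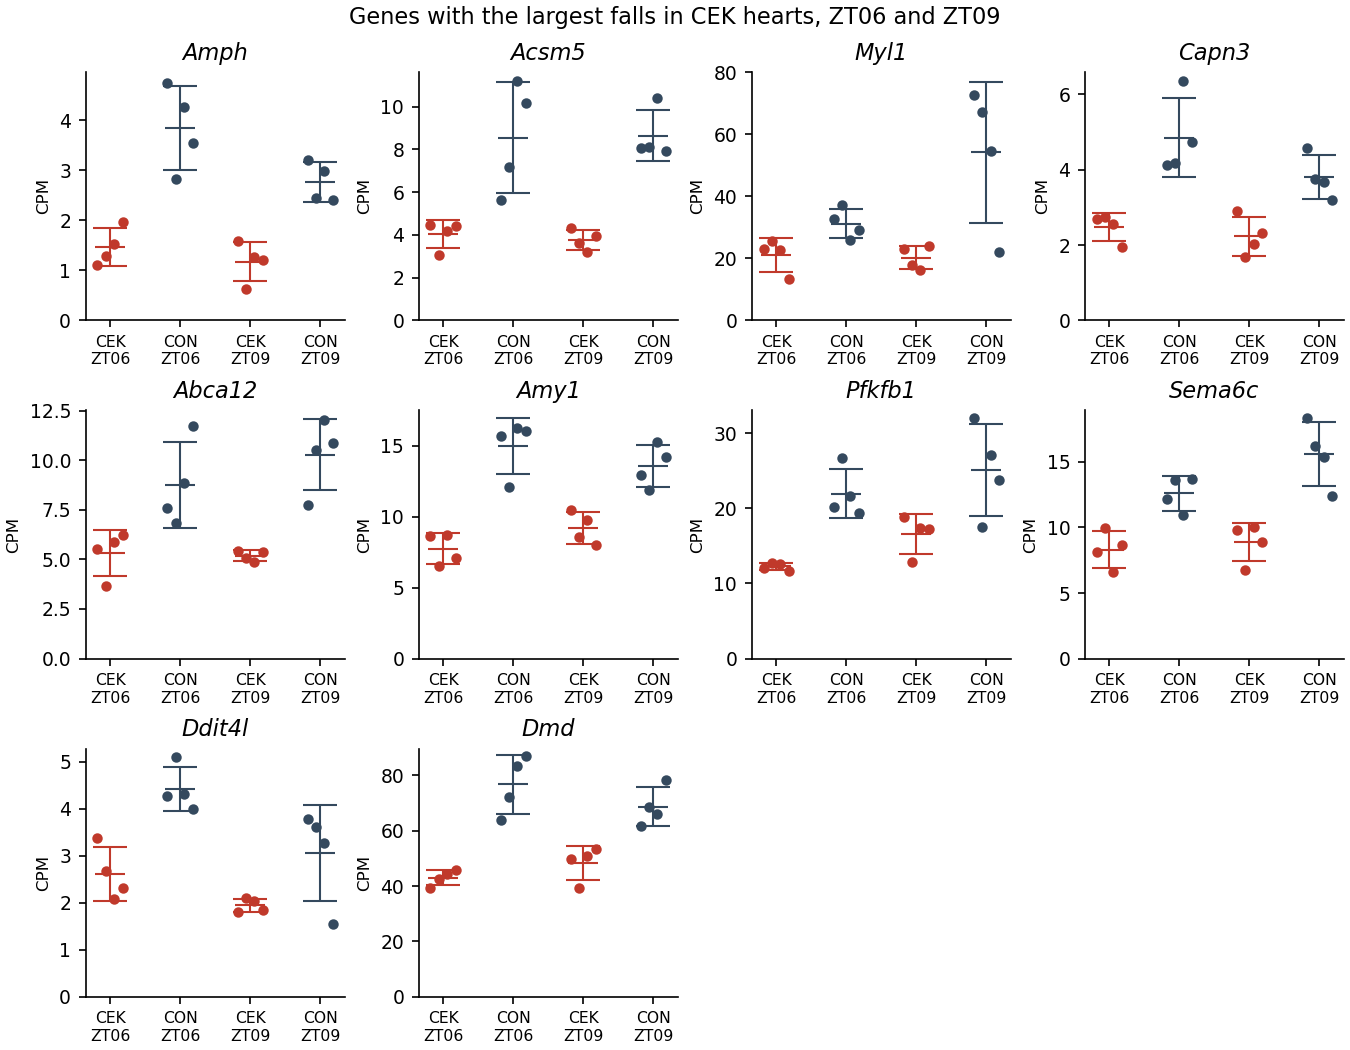
CPM of 10 genes besides Nfil3 among those with the largest falls, each dot a heart, with mean and SD of 4 hearts, CEK (red) left of CON (slate) at ZT06 and at ZT09. All 8 CEK hearts lie below all 8 CON hearts except for Myl1, Pfkfb1 and Ddit4l, where the ranges meet.

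The promoters of the called genes were read for the D-box, since that is the element E4BP4 binds. RefSeq promoter windows of GRCm38.p6, 250 bases before to 50 after a gene start, were searched on both strands for TTATGTAA, whose other strand reads TTACATAA, and for TTACGTAA, which reads the same on both. Of the 109 called genes, 82 had a window, under 80%, so a comparison of called with other genes is void. A match was found in 2 of 42 genes called higher and 0 of 40 called lower, beside 94 of 11206 tested genes (0.839%) and 347 of 32851 windows of the table (1.06%). The 2 genes are Ptgds and Ankrd45, and their windows are shown because they hold the element, in capitals, read 5′ to 3′ on the gene's strand. The first is chr2:25469700-25469999 on the minus strand, with the element starting 141 bases before the start, and the second is chr1:161142447-161142746 on the plus strand, with the element starting 173 bases before it.
Ptgds: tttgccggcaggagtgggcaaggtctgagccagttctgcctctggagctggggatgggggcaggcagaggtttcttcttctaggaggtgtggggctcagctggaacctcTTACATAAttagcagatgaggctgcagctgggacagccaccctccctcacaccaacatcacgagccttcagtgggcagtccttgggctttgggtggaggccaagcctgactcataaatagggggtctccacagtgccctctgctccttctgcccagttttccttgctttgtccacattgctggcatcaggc
Ankrd45: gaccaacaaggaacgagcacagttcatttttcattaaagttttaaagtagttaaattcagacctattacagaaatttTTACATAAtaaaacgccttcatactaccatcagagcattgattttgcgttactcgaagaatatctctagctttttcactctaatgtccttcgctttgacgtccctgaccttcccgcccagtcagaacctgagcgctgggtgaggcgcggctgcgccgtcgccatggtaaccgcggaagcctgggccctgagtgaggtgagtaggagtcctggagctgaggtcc
A match describes these letters only, and no match in the other windows says only that the letters are not within them.

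Genes of the lists described next were chosen for heart and clock, and each list is set beside all tested genes. Of the 15401 tested, 109 (0.708%) were called and 1386 had an unadjusted p under 0.05 in edgeR. The median log2 fold change of all tested genes was -0.002. Of 22 core clock genes 0 were called, and 1 had an unadjusted p under 0.05 in edgeR. That gene was Hlf, a PAR bZIP activator, with 26, 37.3 and 61.3 CPM in CEK hearts and 31.3, 53.7 and 79.4 CPM in CON hearts (lowest, median, highest). Both genotypes were higher at ZT09 than at ZT06 and they overlapped at ZT06 but not at ZT09 (log2 fold change -0.34 ± 0.0956, edgeR adjusted p = 0.155). The list's median was -0.001. The activators Dbp and Tef had log2 fold changes of -0.09 and 0.03, the repressors Per2 and Cry1 -0.12 and -0.09, Nr1d1, which encodes REV-ERB alpha, -0.13, and Arntl, which encodes BMAL1, -0.23, and none of the 6 passed (edgeR adjusted p from 0.841 for Dbp to 0.990 for Tef). The value of Arntl averages -0.66 at ZT06 and 0.39 at ZT09, which differed by 1.05 ± 0.337 (edgeR unadjusted p = 0.00641, adjusted p = 1.00). Dbp, Tef and Per2 also had opposite signs at the times, at 0.02, 0.10 and 0.12 at ZT06 and -0.20, -0.04 and -0.33 at ZT09.

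Cell-cycle brakes and D-cyclins, which drive the cycle, made 1 list with 2 of 13 genes called, both higher. At an unadjusted p under 0.05 in edgeR 3 were higher, Wee1, Cdkn1a and the D-cyclin Ccnd2, and 0 were lower. Wee1, a kinase that holds back mitosis, had 17.8, 27.8 and 34.2 CPM in CEK hearts and 10.8, 17.8 and 26.8 CPM in CON hearts. The ranges overlapped over both times and at ZT06, and at ZT09 all CEK hearts were above all CON hearts (0.61 ± 0.108, edgeR adjusted p = 0.00882, and 0.067 with the atrial score). Cdkn1a, the cyclin-dependent kinase inhibitor p21, had 10.8, 15.9 and 19.4 CPM in CEK hearts and 6.88, 9.88 and 11.6 CPM in CON hearts (0.64 ± 0.0987, edgeR adjusted p = 0.00207), and it overlaps a gene on the opposite strand. Only the lowest CEK heart, at ZT09, fell within the CON range. Of 19 tested genes of NAD synthesis and sirtuins 1 was called. That was Nampt, the rate-limiting enzyme of NAD salvage (chromosome 12, 32819545 to 32853349), with 304, 390.0 and 411 CPM in CEK hearts and 188, 242 and 265 CPM in CON hearts. The genotypes did not overlap, and the log2 fold change was 0.71 ± 0.0703 (edgeR adjusted p = 2.94e-05).

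The 4 called members of the stress, hypertrophy and fetal list were Nppb, Ankrd1, Acta1 and Mybpc2, and the list's median was 0.03. The acute-phase, chemokine and prostaglandin list had 7 higher and 3 lower at an unadjusted p under 0.05 in edgeR, with a median of 0.03. Of its 39 tested genes 3 were called, all higher. Beside Ptgds and Lcn2 this was Serpina3n, an acute-phase protease inhibitor, which rose by 0.61 ± 0.113 (edgeR adjusted p = 0.0119), with 11.4 to 17.6 CPM in CEK hearts and 6.99 to 12.3 CPM in CON hearts. Extracellular matrix and remodelling had 3 of 43 called, all higher, namely Timp1, Tnc and Ndnf, with a median of 0.00. At an unadjusted p under 0.05 in edgeR 5 of that list were higher and 2 lower. Macrophage and myeloid markers had 0 of 12 called by edgeR, 2 at an unadjusted p under 0.05 and a median of 0.10, and their score was 4.13 ± 0.146 in CEK and 4.00 ± 0.242 in CON hearts (SD, n = 8 each; exact permutation p = 0.233). The part of these cells in the rises of the 3 lists was not tested.

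Metabolic lists were read next. Glucose uptake, glycolysis and glycogen had 3 of 42 called: hexokinase Hk1 (0.29 ± 0.064, edgeR adjusted p = 0.0458) and the platelet-type phosphofructokinase Pfkp (0.39 ± 0.0556, edgeR adjusted p = 0.000856) higher, and Pfkfb1 lower. At an unadjusted p under 0.05 in edgeR 3 were higher and 4 lower. Pfkp had 53.8, 59.2 and 66.2 CPM in CEK hearts and 38.6, 46.6 and 51.8 CPM in CON hearts, with no overlap. The Hk1 call ended in 15 of 16 fits without 1 library (highest adjusted p = 0.105) and once the atrial score entered the fit (0.236), and both genes overlap others on the opposite strand. Fatty acid uptake and oxidation had 0 of 40 called by edgeR, with 1 at an unadjusted p under 0.05, a median of -0.09 and 30 of 40 fold changes below 0. Acot1, an acyl-CoA thioesterase, had its smallest p (log2 fold change -0.45, edgeR adjusted p = 0.146). Branched-chain amino acid and ketone catabolism had 0 of 25 called by edgeR and oxidative phosphorylation 0 of 40, with 5 and 0 at an unadjusted p under 0.05 and medians of -0.03 and -0.01.

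Of 42 ion channel and calcium cycling genes 2 were called, both lower, and 30 had fold changes below 0. At an unadjusted p under 0.05 in edgeR 4 were higher and 6 lower. Kcnv2, a silent potassium channel subunit, had 6.86, 9.86 and 10.9 CPM in CEK hearts and 10.2, 13.9 and 17.6 CPM in CON hearts (-0.60 ± 0.12, edgeR adjusted p = 0.0207). Kcnj3, a subunit of the acetylcholine-gated potassium channel of atrial muscle, had 62.2, 72.9 and 98.6 CPM in CEK hearts and 81.5, 107 and 156 CPM in CON hearts. Both overlapped between the genotypes, and Kcnj3 (-0.55 ± 0.101, edgeR adjusted p = 0.0119) was not called with the atrial score, which it is part of (adjusted p = 0.0726). Kcnj3 also overlaps a gene on the opposite strand. Dystrophin and its complex had 1 of 18 called, Dmd itself, with 15 of 18 fold changes below 0 and a median of -0.07. At an unadjusted p under 0.05 in edgeR 4 of the 18 were lower and 0 higher. Of oxidative stress and xenobiotic genes 1 of 34 was called, Ces1d. There were 0 calls by edgeR among the 24 sarcomere, 37 signalling, 23 glucocorticoid, 25 immediate early, 31 unfolded-protein and 34 triglyceride genes tested, with 5, 7, 4, 4, 2 and 8 at an unadjusted p under 0.05.

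Markers of other cell types moved mostly without calls. All 11 atrial markers had fold changes below 0, with a median of -1.01, 9 had an unadjusted p under 0.05 in edgeR and 1 passed, Kcnj3. Adipocyte markers had a median of -1.33 and epicardial and mesothelial markers one of -1.05, with 0 called by edgeR of 10 and 11, and 6 and 1 at an unadjusted p under 0.05. Their scores ranged widely within both genotypes. The adipocyte score was 0.623 ± 0.70 in CEK and 1.47 ± 1.07 in CON hearts (SD, n = 8 each; exact permutation p = 0.0849), with ranges of -0.02 to 2.03 and 0.283 to 3.53. The part of these cells in the results was not tested. The endothelial score had the smallest p of the 19 library measures, 6.71 ± 0.0626 in CEK and 6.82 ± 0.0694 in CON hearts (exact permutation p = 0.00531, adjusted p = 0.101). Fibroblast markers had 1 of 12 called, Fbln1, a matrix fibulin, with 81.1, 93.1 and 109 CPM in CEK hearts and 102, 126 and 158 CPM in CON hearts. The genotypes overlapped, and it fell by 0.46 on the log2 scale (edgeR adjusted p = 0.00961, and 0.0774 with the atrial score).

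**Figure D4:**
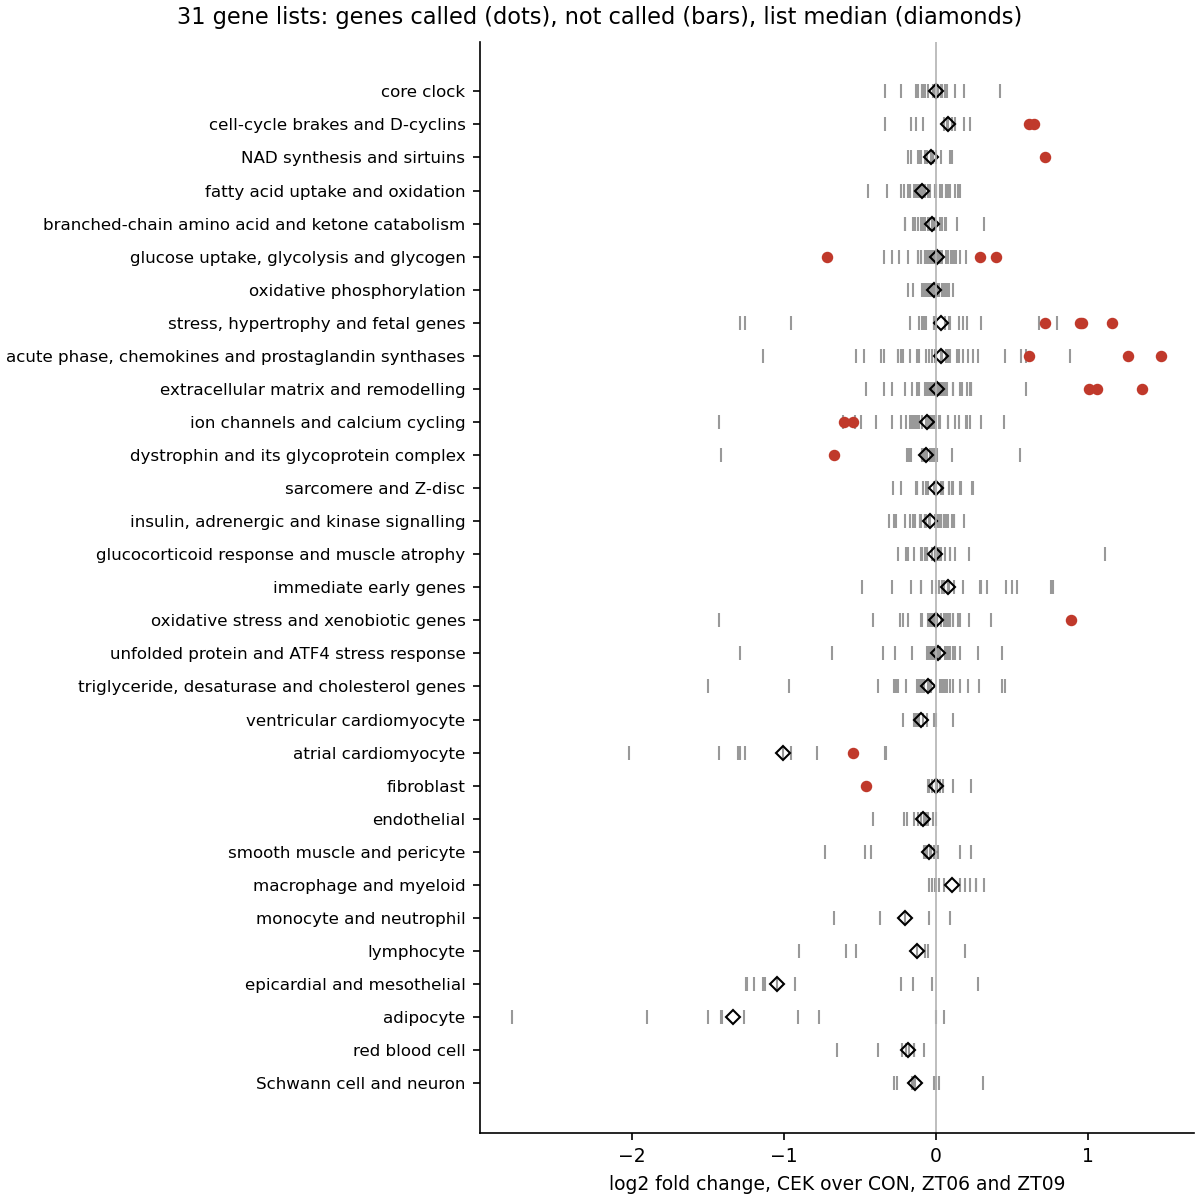
Log2 fold change (CEK over CON) of the tested members of 19 pathway lists and 12 marker lists, as dots where a gene was called, bars where it was not, and a diamond at the list's median. The stress, acute-phase and matrix lists hold 4, 3 and 3 called genes, all to the right of 0, with medians of 0.03, 0.03 and 0.00, while the atrial, epicardial and adipocyte medians lie at -1.01, -1.05 and -1.33.

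The times were then compared. At ZT06 alone 29 genes were called (0.188%), 17 higher (0.11%) and 12 lower (0.0779%). At ZT09 alone 27 were called (0.175%), 17 higher (0.11%) and 10 lower (0.0649%). Called at both were 14. In the test of the difference itself, ZT09 minus ZT06, edgeR called 0 genes, with 575 (3.73%) at an unadjusted p under 0.05, and DESeq2 and voom called 0 as well. A call at only 1 of the times is thus not shown to be a difference between them. These counts depended on single libraries. The ZT09 count was 149 without CON replicate 4 of that time and 5, 10 and 12 without its CON replicates 3, 1 and 2. It was 12, 12 and 11 without CEK replicates 1, 3 and 4 of ZT09, and 3 once the atrial score entered the fit. The ZT06 count was 10, 12 and 12 without CEK replicates 1, 2 and 3 of that time and 16, 19, 15 and 13 without CON replicates 1, 2, 3 and 4. It was 19 and 17 without CEK replicates 1 and 3 of ZT09.

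The last question was how these hours stood to the rest of the day. Fitted apart, the other 48 hearts had 1552 of 16235 genes called (9.56%), 938 higher (5.78%) and 614 lower (3.78%), in a fit with more hearts. Of the 109, 104 were among them, which is 95.4% of the late-light genes and 6.7% of the genes of the other times. All 109 had the same sign there, beside 67.3% of genes not called in late light. The early light hours ZT00 and ZT03 shared 62 genes (56.9% of the late-light genes and 22.4% of theirs), of 277 called (1.78%). The early dark hours ZT12 and ZT15 shared 77 (70.6% and 41.6%), of 185 called (1.21%). The late dark hours ZT18 and ZT21 shared 47 (43.1% and 66.2%), of 71 called (0.461%). Called in all 4 windows were 33 of the 109, and 20 were called in no other window.

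**Figure D5:**
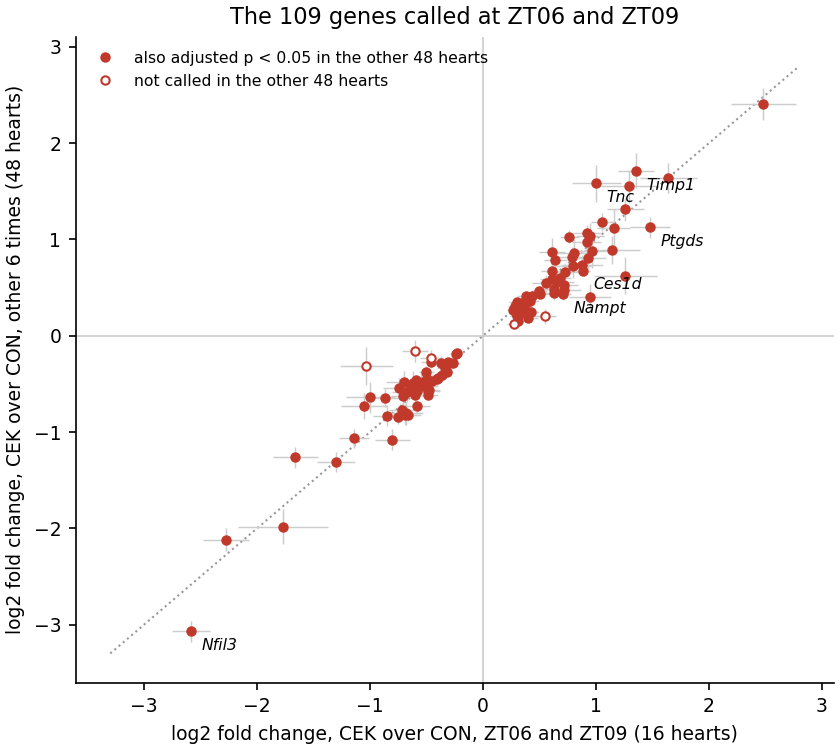
Log2 fold change (CEK over CON) of the 109 genes at ZT06 and ZT09 (horizontal, 16 hearts) and at the other 6 times (vertical, 48 hearts), with SE bars and a dotted line of equal change. All 109 have the same sign on both axes, and 104 (filled) were also called in the other 48 hearts.

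The CEK minus CON difference in late light minus that of the other 6 times gave 0 calls in edgeR, with 405 genes (2.47%) at an unadjusted p under 0.05, and 0 in DESeq2. Against early light, early dark and late dark alone it gave 0 each in edgeR, with 824 (5.02%), 181 (1.1%) and 227 (1.38%) at an unadjusted p under 0.05. Not called in the other 48 hearts were 5 of the 109. In late light Polr1e, a subunit of RNA polymerase I, had a log2 fold change of 0.28, the anoctamin Ano4 0.55, Megf6 -0.60, Clec2l -1.03 and Foxo6os -0.46. Their edgeR adjusted p in late light was 0.0496, 0.0104, 0.0175, 0.0496 and 0.0494, in that order. Whether these calls held with the atrial score in the fit was not recorded. Clec2l averaged 0.697 CPM in CEK and 1.43 CPM in CON hearts, under the floor used for named genes. The 5 genes were named after their values were seen, and for each the test of late light against the rest gave an adjusted p of 1.00.

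For 5 members the values in each window stand side by side here, and none passed that test. Nampt had a log2 fold change of 0.71 in late light, 0.51 in early light, 0.36 in early dark and 0.42 in late dark (late light minus the rest 0.28 ± 0.12, edgeR unadjusted p = 0.0237). For Ces1d the values were 0.89, 0.70, 0.69 and 0.64 (0.21 ± 0.0714, edgeR unadjusted p = 0.00513). Timp1 had 1.35, 2.26, 1.17 and 1.63 (-0.34 ± 0.313, edgeR unadjusted p = 0.276) and Tnc 1.00, 2.22, 1.15 and 1.27 (-0.54 ± 0.34, edgeR unadjusted p = 0.115). Nfil3 itself had -2.58, -2.62, -3.67 and -3.10 (0.51 ± 0.161, edgeR unadjusted p = 0.00266). The adjusted p of all 5 was 1.00.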

How the data were processed

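RNA-seq of 64 ventricular samples was deposited as 1 table of counts of reads per gene, by their values raw. The 16 of ZT06 and ZT09 are compared here. Per the submitters' processing notes, the authors used bcl2fastq 2.18.0.12, STAR 2.6.1d with GRCm38 and HTSeq 0.11.1; for annotation release, strand setting and filters, "not given in the sources used here" holds. The 5 summary rows stayed out. Of 48795 gene rows 48435 matched GENCODE M21.

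Fits used R 4.3.3 and edgeR 4.0.16 (quasi-likelihood, TMM, filterByExpr with minimum count 10), time as a block, 13 residual degrees of freedom and a Benjamini-Hochberg threshold of 0.05 over all tested genes. Group means gave the single times, a 64-library fit the comparison with other times. CPM of single hearts are scaled over the 16 libraries unless stated. Library measures had exact permutation tests within times (4900 arrangements). In simulated counts the late-light test recovered 8, 64 and 100% of genes given log2 fold changes of 0.25, 0.5 and 1. Each simulation was run once, without a time effect. Only genes averaging 1 or more in log2 CPM were changed, so recovery of genes with fewer counts was not simulated. For differences of those sizes ZT09 minus ZT06 recovered 0, 6 and 64%. Late light minus the other 6 times recovered 10, 60 and 90%. The 0 calls of these 2 tests thus do not show that such differences are absent.

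Alternatives were DESeq2 1.42.0, RLE scaling, other filters, library sizes without mitochondrial genes, a replicate block, limma 3.58.1 voom weights, all 64 libraries, 3 covariates, no time term and each library left out.

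Named genes are Nfil3, the 12 largest changes each way among called genes averaging 1 or more in log2 CPM with 1 sign at both times, the 2 largest each way at each time, the 3 smallest p of each pathway list, core clock genes and called markers; provisional names were counted only, and 1 gene of the rule is not reported here. The comparison, lists and members were chosen with earlier results of these data known, and no list was tested as a set. Libraries of a group differed by at least 8.86 times sampling noise, so none is a second copy of another.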

Additional observations from a re-analysis of the deposited data

Results flagged for a closer look

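In groups of 4 hearts, a value was looked at again where its gap to the nearest heart as a share of the group's range passed Dixon's 95% critical value. This was run on the 34 named genes that were called and on 19 library measures, in 212 groups, and gave 10 values, where chance gives about 1 in 20 groups, or 10.6.

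Among CEK hearts, Nfil3 was 1.931 CPM in replicate 2 at ZT06, with the others at 1.5 to 1.564 CPM. Timp1 was 6.006 CPM in CEK replicate 1 at ZT06, above 4.092 to 4.346 CPM in the others. Nppb was 181.4 CPM in CEK replicate 2 at ZT09, above 103.5 to 110.5 CPM. That same heart had an endothelial score of 6.76, above 6.661 to 6.674. Reads in no feature made 4.316% in CEK replicate 2 at ZT06, above 3.457 to 3.505% in the others.

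Among CON hearts, Acsm5 was 10.41 CPM in replicate 3 at ZT09, above 7.926 to 8.12 CPM. Ndnf was 12.28 CPM in CON replicate 2 at ZT09, above 8.205 to 8.625 CPM. Amy1 was 12.07 CPM in CON replicate 2 at ZT06, below 15.67 to 16.23 CPM. Wee1 was 18.05 CPM in CON replicate 4 at ZT06, above 10.77 to 11.77 CPM, and reads with more than 1 location made 32.73% in that heart, below 34.16 to 34.42% in the others.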

How the results depend on the processing

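Among the 34 named genes that were called, the sign held in all alternatives run, and 20 kept their call in all. Leaving out 1 library at a time gave 73 to 121 calls in late light (40 to 64 higher, 33 to 57 lower; lowest without CON replicate 3 at ZT09), 10 to 31 at ZT06, 5 to 149 at ZT09, and log2 fold changes of Nfil3 from -2.66 to -2.50. The test of ZT09 minus ZT06 gave 0 calls in each alternative, and late light minus the other 6 times gave 0 in those run for it: DESeq2, RLE, no low-count filter, the replicate block, the atrial score, leaving out each library and leaving out the 3 libraries of the series that stand apart. DESeq2 called 251 genes in late light (142 higher, 109 lower), with all 109 edgeR calls among them, 66 at ZT06 and 135 at ZT09. With the atrial score as a covariate 68 were called (31 higher), 58 of them among the 109, and 3 at ZT09. At ZT09 alone 76 were called with no low-count filter, 560 with voom weights, 56 with all 64 libraries and 88 with the submitter number as a covariate; voom called 47 at ZT06. The cause of these changes was not tested.

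The labels do not say that a replicate number marks a shared litter or day, and for that reason the main fit did not pair hearts by number. Same-numbered hearts had correlations of -0.38 to 0.54, over 0.1 in 5 of 8 pairs. Of 8 CEK hearts 5 were best matched to the CON heart of their number, where chance gives 1 in 4. Whether the numbers mark a shared litter or day was not tested. With a replicate block 146 genes were called in late light (84 higher, 62 lower), 36 at ZT06, 40 at ZT09 and 0 for either difference between times, and Nfil3 had -2.57. Of the 109 calls 102 were kept, and Myl1 missed (edgeR adjusted p = 0.0558). With 4 hearts a group, genes with few counts and small differences may be missed.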

Other observations

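Genes reported as induced by p53, the DNA damage and stress regulator, were looked up after the called genes had been seen, so the list was written knowing that some of its members were called and it was given no test. Of 29 genes 7 were called higher and 1 lower, and 25 had fold changes above 0, with a median log2 fold change of 0.16, against 59 higher and 50 lower of 15401 and a median of -0.002 over all genes tested. Beside Cdkn1a the rises were those of Phlda3, a brake on Akt (0.61 ± 0.102, SE; edgeR adjusted p = 0.00448), the TNF receptor family member Eda2r (0.72 ± 0.147, edgeR adjusted p = 0.0243), the nuclease gene Aen (0.28 ± 0.0548, edgeR adjusted p = 0.0182), the membrane protein gene Perp (0.31 ± 0.0636, edgeR adjusted p = 0.0274), the decoy receptor Tnfrsf23 (0.55 ± 0.124, edgeR adjusted p = 0.0466) and the noncoding RNA Trp53cor1 (1.26 ± 0.28, edgeR adjusted p = 0.0449). Tnfrsf23 and Trp53cor1 overlap genes on the opposite strand. Trp53cor1 averaged 0.687 CPM in CEK and 0.281 CPM in CON hearts, and its mean log2 CPM of -0.81 is under the floor of 1 used for named genes. Ddit4l fell (-0.70 ± 0.152, edgeR adjusted p = 0.0361). In the other 48 hearts 10 of the 29 were called higher and 2 lower. Apart from Cdkn1a and Ddit4l, whether the late-light calls of this list held with the atrial score in the fit was not recorded.

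Some called genes outside the lists, named after their values were seen, had CEK and CON hearts apart. Whether their calls held with the atrial score in the fit was not recorded. Mmp12, the macrophage metalloelastase, averaged 2.06 ± 0.574 CPM in CEK and 0.678 ± 0.276 CPM in CON hearts (SD, n = 8 each; edgeR adjusted p = 0.00207), and it overlaps Mmp1b on the opposite strand. Epn3, an endocytic epsin, averaged 48.4 ± 5.22 CPM in CEK and 28.6 ± 3.75 CPM in CON hearts (edgeR adjusted p = 0.00012). Ndrg4, abundant in heart and brain, averaged 495 ± 27.9 CPM in CEK and 351 ± 29 CPM in CON hearts (edgeR adjusted p = 0.000181). Lower were Maob, monoamine oxidase B, with 53.7 ± 6.65 CPM in CEK and 73.4 ± 5.97 CPM in CON hearts (edgeR adjusted p = 0.00207), and Slc40a1, the iron exporter ferroportin, with 23.0 ± 1.64 CPM in CEK and 30.5 ± 2.83 CPM in CON hearts (edgeR adjusted p = 0.00291).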
